A study of Mus musculus with 8 samples.

Results

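Gt(ROSA)26Sor, Thumpd3 and Setd5 are the 3 genes of the Rosa26 locus on mouse chromosome 6. They were described here out of 32285 genes counted in single-nucleus libraries of the ventricular-subventricular zone (V-SVZ). Gt(ROSA)26Sor was chosen on its counts, which had differed between genotypes in earlier results of these data, and Thumpd3 and Setd5 were added because they flank it. The values of Gt(ROSA)26Sor by genotype are therefore a description and carry no test.

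Rosa26 became a standard site for mouse transgenes because its noncoding transcript is made in most tissues and its disruption is tolerated. Reporter cassettes are placed in the first intron of Gt(ROSA)26Sor, and they switch on where Cre recombinase removes a stop sequence. Thumpd3 encodes a tRNA guanosine methyltransferase that works with the partner TRMT112. Setd5 encodes a SET-domain chromatin protein that associates with the HDAC3 and NCoR co-repressor and is linked to intellectual disability when a copy is lost.

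The study compared 4 Tsc2 wt/wt mice with 4 Tsc2 mut/mut mice at postnatal day 90, with 1 library per mouse, to see what changes in neural stem cells and their progeny after loss of Tsc2, which encodes a brake on mTORC1. Mice of both groups carried the Rosa26 reporter allele Gt(ROSA)26Sortm9, in which the CAG promoter drives tdTomato after Cre, and the mut/mut mice carried the conditional Tsc2tm1.1Mjg/J allele. From each V-SVZ, 100000 tdTomato-positive nuclei were sorted, so every library was selected for a product of the locus described here. RFP +/- and RFP +/+ animals were both used, and the labels do not say which of these each of the 8 mice was. Cre came from an electroporated plasmid or from a Nestin-CreERT2 transgene given tamoxifen, and the methods used here do not name the route for these libraries. The RNA of the reporter itself is not analysed here.

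Each library held 60000 barcodes. Unique molecular identifiers (UMIs) per library ranged from 11182335 to 33345765 in wt/wt and from 21908321 to 36773832 in mut/mut. The median UMI count per barcode in a mouse was 79 to 452 in wt/wt and 251 to 514 in mut/mut. Sets cut by detected genes thus drew on different parts of each library. At 100 to under 200 genes they held 7774 to 29955 barcodes per wt/wt mouse and 14930 to 36622 per mut/mut mouse. The part of depth in the levels below was not tested. Of 453550 distinct barcode sequences, 25585 occurred in more than 1 library, and a pair of libraries shared from 917 to 1058. Of all 480000 barcodes, 37881 had at least 300 genes, and 3470 of those had under 20% mitochondrial UMIs. At 100 to under 200 genes, 48.0% to 49.8% of the UMIs of a mouse were mitochondrial. Most barcodes in the sums over all barcodes and over sparse barcodes are therefore not shown to be nuclei. Values below are CPM, the UMIs of a gene per 1000000 UMIs of the same mouse and barcode set, with SD over mice. All 14 markers of each of 11 V-SVZ cell classes were detected, and the ranges of their summed CPM overlapped between genotypes for every class. The library of mut/mut replicate 4 stood apart, with Malat1, an abundant nuclear RNA, at 375 CPM against 1684 to 3277 CPM in the other 7. Tsc2 itself was at 10.1 to 12.3 CPM in wt/wt and at 8.78 to 11.9 CPM in mut/mut, over 4 mice each, and edgeR's quasi-likelihood test gave a log2 fold change of -0.05 with an SE of 0.10 and an adjusted p of 0.914. The sources used here do not say which part of Tsc2 is deleted, and a tag from the 3′ end does not check a deletion elsewhere in the gene.

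On GRCm38 (GENCODE M21), Thumpd3 (ENSMUSG00000030264, plus strand) spans chr6:113046225-113068273 and Setd5 (ENSMUSG00000034269, plus strand) spans chr6:113077365-113153435. Gt(ROSA)26Sor (ENSMUSG00000086429, minus strand) lies between them at chr6:113067428-113077333 and is annotated as an antisense noncoding RNA. It starts 31 bases from the start of Setd5 and runs away from it. Its last 846 bases overlap the 3′ end of Thumpd3 on the other strand, so reads there can be told apart only by strand, and the use of strand in counting is not given in the sources used here. Of its 4 annotated transcripts, 2 reach into Thumpd3, while Gt(ROSA)26Sor-201, of 1181 bases, ends before it.

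Both ends of Gt(ROSA)26Sor-201 are shown because the reporter lies between them and because a 3′ library counts the second one. Both are exonic, on the minus strand of GRCm38, and written 5′ to 3′ from the GENCODE transcript. Exon 1, at chr6:113077068-113077210, had a GC content of 71.3%. The last 300 bases of exon 2, at chr6:113070398-113070697, had a GC content of 31.3% and hold AATAAA once, in capitals, starting 27 bases before the end. The letters AATAAA, on the transcript's own strand, stood in the last 40 bases of 27.6% of the 131058 GENCODE transcripts of at least 300 bases.
Gt(ROSA)26Sor-201, exon 1: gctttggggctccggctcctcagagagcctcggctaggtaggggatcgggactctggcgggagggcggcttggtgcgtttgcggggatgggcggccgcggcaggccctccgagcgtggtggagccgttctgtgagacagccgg
Gt(ROSA)26Sor-201, last 300 bases: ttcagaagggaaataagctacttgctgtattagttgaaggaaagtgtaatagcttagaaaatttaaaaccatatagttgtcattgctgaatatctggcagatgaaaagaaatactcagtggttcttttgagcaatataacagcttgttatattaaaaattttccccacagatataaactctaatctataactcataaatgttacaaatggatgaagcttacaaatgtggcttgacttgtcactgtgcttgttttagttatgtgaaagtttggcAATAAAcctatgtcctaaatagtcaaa

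Gt(ROSA)26Sor was lower in Tsc2 mut/mut than in Tsc2 wt/wt over all barcodes, and the difference was less even in barcodes with many genes than in those with few. In all barcodes the 4 wt/wt mice were at 103, 77.1, 74.3 and 94.2 CPM. The 4 mut/mut mice were at 50.7, 44.4, 51.5 and 49.7 CPM. The groups did not overlap, and the mut/mut values were the more uniform, with means of 87.1 CPM ± 13.6 and 49.1 CPM ± 3.22 (SD, n = 4 each). The mean was 1.77 times higher in wt/wt, and the fit over all genes gave a log2 fold change of -0.75 with an SE of 0.14. These values rest on 831 to 2572 UMIs per mouse. Of the 15360 genes tested, 3.23% had every mut/mut mouse below every wt/wt mouse, and 0.0456% passed edgeR's adjusted p of 0.05 in either direction. Since this contrast chose the gene, nothing is read from its place among them. In sums over barcodes, fewer cells that make an RNA, less RNA per cell and a different share of RNA from outside nuclei cannot be told apart. Whether each mouse was RFP +/- or RFP +/+ at this same locus is not known here, and its part in these levels was not tested.

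Gt(ROSA)26Sor was also lower in mut/mut in the sparsest barcodes that every library held, those with at least 100 and fewer than 200 detected genes. These barcodes are part of the sums above. The gene was chosen with genotype results known, so these values too are a description and no second test. Here Gt(ROSA)26Sor was at 90.6, 71.0, 82.6 and 89.9 CPM in wt/wt. In mut/mut it was at 50.5, 39.9, 42.8 and 42.2 CPM, without overlap. The log2 fold change was -0.88 with an SE of 0.11. Of 11880 genes tested in these barcodes, 3.85% had every mut/mut mouse below every wt/wt mouse and 0.227% were called. In barcodes of at least 200 and fewer than 300 genes the wt/wt mean was 94.4 CPM ± 11.7 (SD, n = 4). The mut/mut mean was 49.8 CPM ± 1.88 (SD, n = 4), so the means were 1.89 times apart. For these barcodes the share of all genes without overlap was not computed.

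Barcodes with at least 300 genes were less uniform. The wt/wt mice were at 150, 84.0, 74.4 and 112 CPM for Gt(ROSA)26Sor. The mut/mut mice were at 51.5, 50.5, 58.5 and 77.2 CPM. The highest mut/mut value, that of replicate 4, exceeded the lowest wt/wt value, so the groups overlapped. The log2 fold change was -0.71 with an SE of 0.30, and -1.02 without mut/mut replicate 4 and -0.32 with an SE of 0.55 in barcodes of at least 500 genes. Of 13060 genes tested here, 1.08% had every mut/mut mouse below every wt/wt mouse and 0.0153% were called. The plot of CPM by barcode set shows these levels beside those of the flanking genes.

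**Figure D1:**
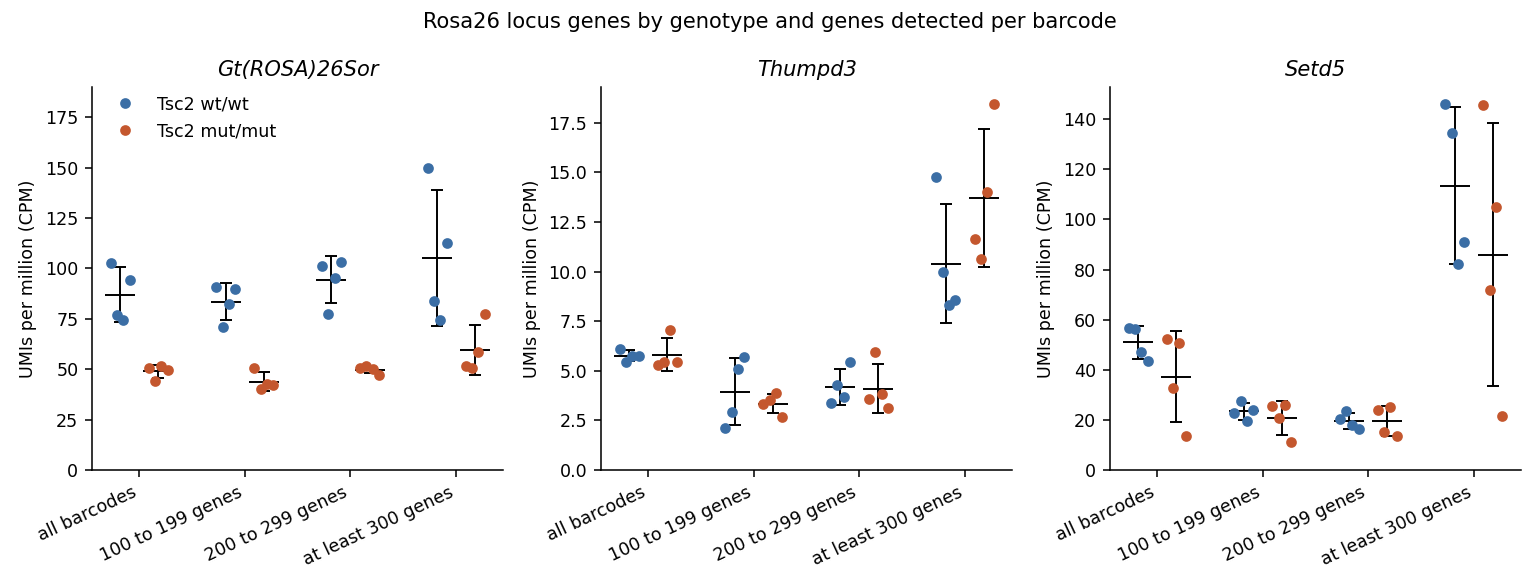
CPM of the 3 genes in 4 barcode sets, by genotype. Points are mice, and black bars are the mean and SD of 4 mice. Gt(ROSA)26Sor, which was chosen on its counts by genotype, does not overlap between genotypes in the first 3 sets. This is a description, and for the last of these 3 no share of all genes without overlap was computed. Values of Thumpd3 and Setd5 overlap between genotypes in each set.

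Thumpd3, the tRNA methyltransferase gene that Gt(ROSA)26Sor overlaps, was sparsely counted and did not separate the genotypes. Over all barcodes it was at 6.12, 5.43, 5.72 and 5.73 CPM in wt/wt. It was at 5.30, 5.43, 7.04 and 5.42 CPM in mut/mut. The ranges overlapped, with a log2 fold change of 0.09 and an SE of 0.13, from 64 to 259 UMIs per mouse. In barcodes of 100 to under 200 genes the log2 fold change was -0.14 with an SE of 0.26. In barcodes of at least 300 genes it was 0.50 with an SE of 0.29, 0.18 without mut/mut replicate 4 and -0.025 without barcodes gated as choroid plexus.

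Setd5, the chromatin gene that starts back to back with Gt(ROSA)26Sor, varied more among the mut/mut mice than between genotypes. Over all barcodes it was at 56.8, 56.2, 47.0 and 43.6 CPM in wt/wt. In mut/mut it was at 52.3, 32.6, 50.5 and 13.7 CPM. Replicates 1 and 3 of mut/mut fell within the wt/wt range, and replicate 4, the library low in Malat1, was the lowest. The log2 fold change was -0.44 with an SE of 0.29, and -0.20 without mut/mut replicate 4. It was -0.19 with an SE of 0.19 in barcodes of 100 to under 200 genes and -0.01 there without that library. In barcodes of at least 300 genes it was -0.43 with an SE of 0.39, and -0.17 without it.

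The genes around the locus showed no called difference between genotypes. Of 46 other genes in the tables with bodies within 1 Mb on either side of Gt(ROSA)26Sor, 30 passed the filter on low counts over all barcodes. By edgeR's quasi-likelihood test 0 of the 30 were called at an adjusted p of 0.05, against the 0.0456% of all genes, and the lowest adjusted p was 0.587. At an unadjusted edgeR p under 0.05 there were 3, beside 1108 of all 15360 genes, and DESeq2 called 0. Calls were so rare over all genes that 0 of 30 says little about the neighbourhood. Their log2 fold changes ran from -1.45 to 0.31 with a median of -0.03, beside -0.01 for all genes, with 13 positive and 17 negative. In barcodes of 100 to under 200 genes 26 were tested and 0 were called, against 0.227% of all genes, and DESeq2 called 0. Of the 26, 2 had an unadjusted edgeR p under 0.05, beside 917 of all 11880 genes. In barcodes of at least 300 genes 25 were tested and 0 were called, against 0.0153% of all genes, and DESeq2 called 0. Of the 25, 0 had an unadjusted edgeR p under 0.05, beside 337 of all 13060 genes.

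The nearest neighbours at a mean of 5 CPM or more on the Setd5 side were Lhfpl4, which encodes a protein of inhibitory synapses, and Cpne9, a copine gene. Lhfpl4 was at 9.71 CPM ± 1.12 in wt/wt and 9.49 CPM ± 1.25 in mut/mut (SD, n = 4 each). Cpne9 was at 6.59 CPM ± 0.463 and 7.00 CPM ± 1.26 (SD, n = 4 each). On the Thumpd3 side they were Srgap3 and Lmcd1, a LIM-domain gene 737003 bases away. Srgap3 was at 65.0 CPM ± 1.92 and 58.6 CPM ± 17.2 (SD, n = 4 each), so its groups overlapped. Lmcd1 was the 1 of these 4 whose groups did not overlap, at 5.67, 6.81, 6.44 and 7.02 CPM in wt/wt and from 3.79 to 4.51 CPM in mut/mut. Of all 15360 genes tested, 3.23% had every mut/mut mouse below every wt/wt mouse, so this alone does not set Lmcd1 apart. Its log2 fold change of -0.52 with an SE of 0.14 did not pass, with an edgeR adjusted p of 0.587.

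**Figure D2:**
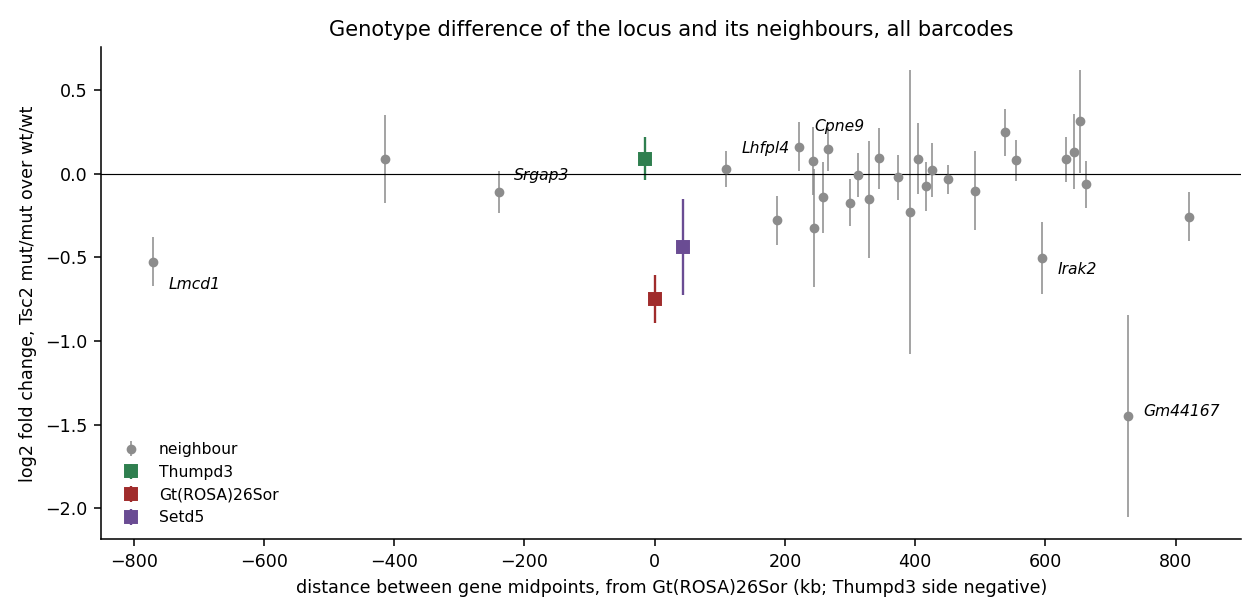
Log2 fold change of Tsc2 mut/mut over wt/wt in all barcodes (y axis, bars are the SE of the edgeR fit) against the distance in kb between each gene's midpoint and that of Gt(ROSA)26Sor (x axis). Gt(ROSA)26Sor sits at -0.75 between Thumpd3 at 0.09 and Setd5 at -0.44, and of the grey neighbours none was called.

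Gt(ROSA)26Sor parted from its flanking genes when barcodes were divided by their mitochondrial share. Nuclei hold little mitochondrial RNA, so among barcodes of at least 300 genes those with under 20% mitochondrial UMIs (191 to 942 per mouse) were set against those with 20% or more (1668 to 9211 per mouse). Setd5 and Thumpd3 stood at a higher CPM in the low-mitochondrial barcodes of all 8 mice. These barcodes held 3.25% to 8.48% of all UMIs of a mouse, 3.97% to 18.9% of its Gt(ROSA)26Sor UMIs and 32.0% to 49.5% of its Thumpd3 UMIs. They held 40.8% to 57.4% of its Setd5 UMIs in 7 mice and 10.2% in mut/mut replicate 4. Barcodes of fewer than 300 genes held 64.1% to 76.9% of Gt(ROSA)26Sor UMIs, near the 66.6% to 83.7% of all UMIs. Its means of 83.5 and 43.8 CPM by genotype in barcodes of 100 to under 200 genes stood near the 96.8 and 50.5 CPM of high-mitochondrial barcodes.

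Setd5 was at 384, 488, 373 and 313 CPM in the low-mitochondrial barcodes of wt/wt mice. In those of mut/mut mice it was at 392, 316, 324 and 42.8 CPM. In high-mitochondrial barcodes it ran from 16.1 to 30.3 CPM over the 8 mice. Replicate 4 of mut/mut alone stayed under 300 CPM in the low-mitochondrial set. With the mouse as a block, edgeR gave a log2 difference of 2.20 with an SE of 0.25 and an adjusted p of 6.4e-06. Calls were common in this contrast, with 38.6% of 10884 genes higher and 40.1% lower in low-mitochondrial barcodes, so a call alone sets none of the 3 genes apart. Thumpd3 ran from 27.1 to 80.4 CPM in low- and from 2.40 to 4.96 CPM in high-mitochondrial barcodes, without overlap. Its log2 difference was 1.90 with an SE of 0.28 and an adjusted p of 4.6e-05.

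Gt(ROSA)26Sor did not move one way, with 5 of 8 mice higher in low-mitochondrial barcodes. In low-mitochondrial barcodes it was at 229, 57.5, 48.5 and 128 CPM in wt/wt and 46.2, 72.8, 67.8 and 199.3 CPM in mut/mut. In high-mitochondrial barcodes it was at 108, 91.8, 80.1 and 107 CPM in wt/wt and 53.9, 45.9, 55.2 and 46.9 CPM in mut/mut. The genotypes did not overlap in the high-mitochondrial set and overlapped in the low. The share of all genes without overlap was not computed for these sets. The edgeR log2 difference, low minus high, was -1.15 with an SE of 0.37 and an adjusted p of 0.0120 with TMM scaling. It was 0.38 with an SE of 0.31 and an adjusted p of 0.271 with total UMIs as the scale, so its direction depends on the scaling. The scaling moved the median log2 difference of all genes from -0.06 to 1.45, and on both scales Gt(ROSA)26Sor lay below that median while Thumpd3 and Setd5 lay above it.

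Much of the spread in low-mitochondrial barcodes moved with 1 cell class. Barcodes gated as choroid plexus held 253 of the 302 low-mitochondrial Gt(ROSA)26Sor UMIs of wt/wt replicate 1 and all 191 of mut/mut replicate 4, the highest mouse of each genotype. The same gate held 41.9% and 93.9% of the low-mitochondrial UMIs of all genes in these 2 mice. Without that gate, which was left out after the data were seen, Gt(ROSA)26Sor was at 64.0, 37.7, 38.0 and 34.7 CPM in low-mitochondrial barcodes of wt/wt. In mut/mut it was at 21.4, 26.9 and 30.6 CPM in replicates 1 to 3, and replicate 4 had 0 UMIs in 26 barcodes, which allows up to 51.5 CPM. The genotypes then did not overlap, but for the limit set by replicate 4. These values rest on 25 to 75 UMIs per wt/wt mouse and 19 to 72 in mut/mut replicates 1 to 3. The share of all genes without overlap was not computed for this set. Malat1 did not overlap there either, at 36691 to 41050 CPM in wt/wt and 25409 to 31827 CPM in mut/mut, so nothing is read from the separation. The log2 difference, low minus high, became -2.71 with an SE of 0.14 and an edgeR adjusted p of 8.4e-15. In that contrast 9307 of 10586 genes were called, so a call does not set Gt(ROSA)26Sor apart. With total UMIs as the scale it was -1.09 with an SE of 0.15 and an edgeR adjusted p of 1.4e-07. The gate asks for a low mitochondrial share, so barcodes were removed from the low set only and the high set stayed unchanged. Gt(ROSA)26Sor stood highest in the gated class, so this removal by itself lowers the difference, low minus high. The negative values on both scales therefore do not settle the direction. Setd5 in replicate 4 of mut/mut was at 326 CPM once the gate was removed, from 19 UMIs.

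The ratio of Gt(ROSA)26Sor to Setd5 UMIs inside a library needs no scaling. In high-mitochondrial barcodes it was 5.66, 3.03, 4.54 and 5.45 in wt/wt and 1.80, 2.08, 1.89 and 2.92 in mut/mut. In low-mitochondrial barcodes without the choroid plexus gate it was 0.0990, 0.0722, 0.0984 and 0.0894 in wt/wt and 0.0482, 0.0671, 0.0764 and 0 in mut/mut. With the choroid plexus barcodes kept, the low-mitochondrial ratio was 0.118 to 0.597 in the other 7 mice and 4.66 in mut/mut replicate 4. That mouse was then the 1 of 8 whose ratio was higher in low- than in high-mitochondrial barcodes. With gated barcodes taken out of the low set only, there was none. The plot of CPM in both kinds of barcode shows the courses of the 2 genes with and without that gate.

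**Figure D3:**
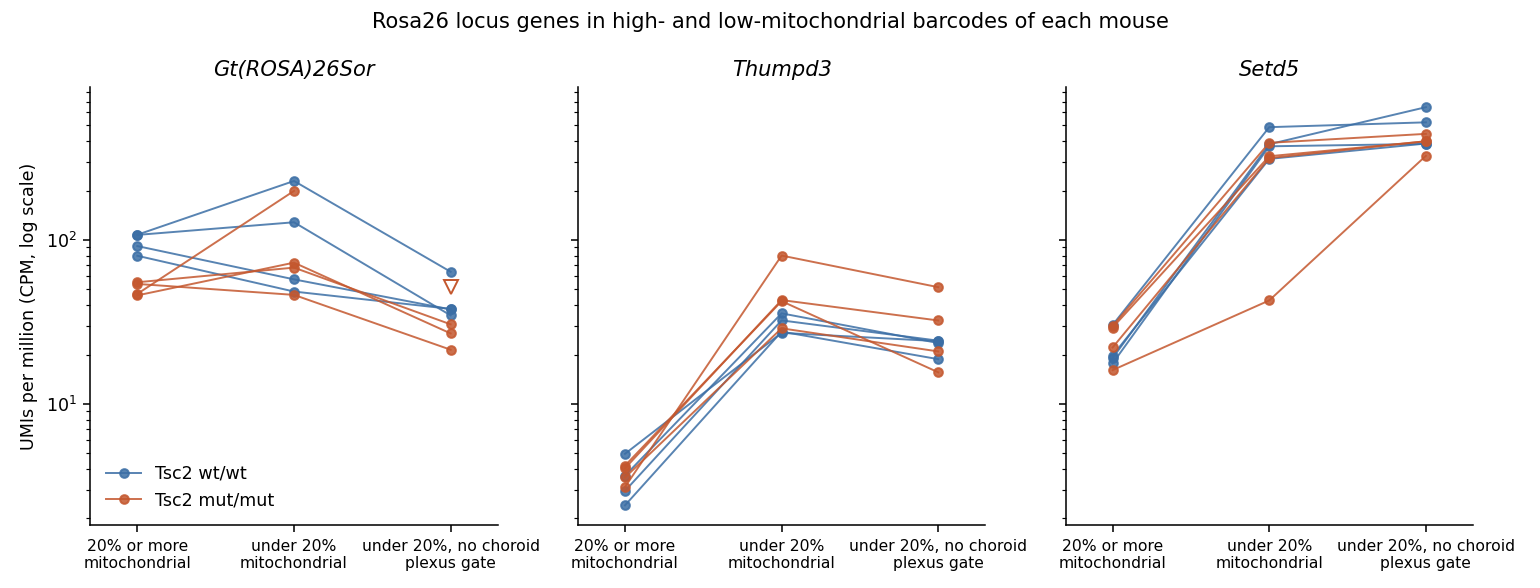
CPM on a log axis of the 3 genes in barcodes with 20% or more and with under 20% mitochondrial UMIs, and in the latter without barcodes gated as choroid plexus. Each line is a mouse, and the open triangle marks the level that 3 UMIs would give where a mouse had 0. Setd5 and Thumpd3 are higher in both low-mitochondrial sets than in the high in all 8 mice, and Gt(ROSA)26Sor is lower at the right than at the left in the 7 mice with UMIs.

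The difference between low- and high-mitochondrial barcodes was also compared between genotypes, as the log2 ratio of CPM + 1 in each mouse. For Setd5 it was 4.12 ± 0.21 in wt/wt and 3.06 ± 1.14 in mut/mut (SD, n = 4 each), with every mut/mut mouse below every wt/wt mouse. The share of all genes that separate on this ratio was not computed. An exact two-sided permutation test gave p = 0.0286, the smallest it can give with 4 against 4. Adjusted over the 3 genes this was 0.0857. With Setd5 alone at the smallest p, no values of Setd5 could have passed after adjustment. The adjusted test therefore cannot decide whether the difference in Setd5 is real, and nothing is concluded from it. Without the choroid plexus gate the difference shrank from -1.06 to -0.43, with an exact adjusted p of 0.429, and without mut/mut replicate 4 it was -0.49. The adjustment counted Gt(ROSA)26Sor among the 3. For Thumpd3 the difference of mut/mut minus wt/wt was 0.46 (exact permutation test, adjusted p = 0.371), and 0.12 without mut/mut replicate 4. For Gt(ROSA)26Sor it was 0.71, and 0.25 without that library, given as a description.

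By cell class, Gt(ROSA)26Sor stood highest in choroid plexus-gated barcodes, the epithelium that makes cerebrospinal fluid. A class gate asked for at least 300 genes, under 20% mitochondrial UMIs, at least 3 of 14 markers and 2 more than of any other class. It reached 10 barcodes in all 8 mice for none of the 11 classes, so mice with at least 10 were used, a choice made after the data were seen. In choroid plexus-gated barcodes Gt(ROSA)26Sor was at 459, 320 and 494 CPM in wt/wt replicates 1, 2 and 4. Replicate 3 had 1 such barcode, with 8 UMIs or 356 CPM (95% exact Poisson interval 154 to 701, counting error only). The mut/mut mice were at 216, 224, 209 and 212 CPM. The wt/wt mean of 424 CPM ± 91.7 (SD, n = 3) was 1.97 times the mut/mut mean of 215 CPM ± 6.34 (SD, n = 4), without overlap. In these barcodes Malat1 was at 31.1 to 552 CPM over the 7 mice with at least 10 of them, against 12662 to 77475 CPM in the 4 other classes of this comparison, and the median UMI count per barcode in a mouse was 4712 to 12177. The part of these differences in the levels of the 3 genes was not tested. The share of all genes whose genotypes do not overlap was not computed for any gate.

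Thumpd3 in the choroid plexus gate was at 52.6, 66.8 and 62.2 CPM in wt/wt replicates 1, 2 and 4 and at 83.8, 130, 83.5 and 82.2 CPM in mut/mut. The genotypes did not overlap, with mut/mut the higher, opposite to Gt(ROSA)26Sor in the same barcodes and from only 10 to 74 UMIs per mouse. Without the share of all genes that separate in this gate, nothing is read from that. In the microglia gate Thumpd3 was at 37.4 to 125 CPM in wt/wt and 28.2 to 62.4 CPM in mut/mut, from 1 to 14 UMIs per mouse. Its choroid plexus and microglia values thus overlapped in wt/wt. In mut/mut every choroid plexus value lay above every microglia value, on these few UMIs. Setd5 in contrast ran from 18.3 to 38.6 CPM in the gate, and its genotypes overlapped. That was below every value of Setd5 in astrocyte or NSC, oligodendrocyte, microglia and ependymal gates, where it ran from 246 to 741 CPM.

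In the astrocyte or NSC gate, the class of the stem cells the study set out to label, Gt(ROSA)26Sor was at 76.2, 47.4, 49.8 and 48.2 CPM in wt/wt. In mut/mut replicates 1 to 3 it was at 31.0, 23.3 and 32.5 CPM. Here too the groups did not overlap, with no share of all genes to set beside it. The wt/wt mean was 1.91 times the mut/mut mean, from 6 to 50 UMIs per mouse. The difference of mean log2 values was -0.90, and -0.30 when the gate asked for under 10% mitochondrial UMIs. Mitochondrial UMIs made up 3.19% to 5.83% of the gate's UMIs in wt/wt mice and 5.93% to 7.20% in mut/mut mice, replicate 4 included. The part of this in the level was not tested. In the other gates the counts did not separate the genotypes. Oligodendrocyte-gated barcodes held 0 to 9 Gt(ROSA)26Sor UMIs per mouse, with means of 13.3 CPM ± 9.61 (SD, n = 4) and 15.7 CPM ± 8.50 (SD, n = 3). Microglia-gated barcodes held 1 to 6 UMIs, with means of 50.2 CPM ± 34.1 (SD, n = 4) and 14.2 CPM ± 4.03 (SD, n = 3), and ependymal-gated barcodes 1 to 5, with means of 29.7 CPM ± 15.0 and 26.2 CPM ± 11.3 (SD, n = 3 each). The ranges of the genotypes overlapped in each of these 3 classes.

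**Figure D4:**
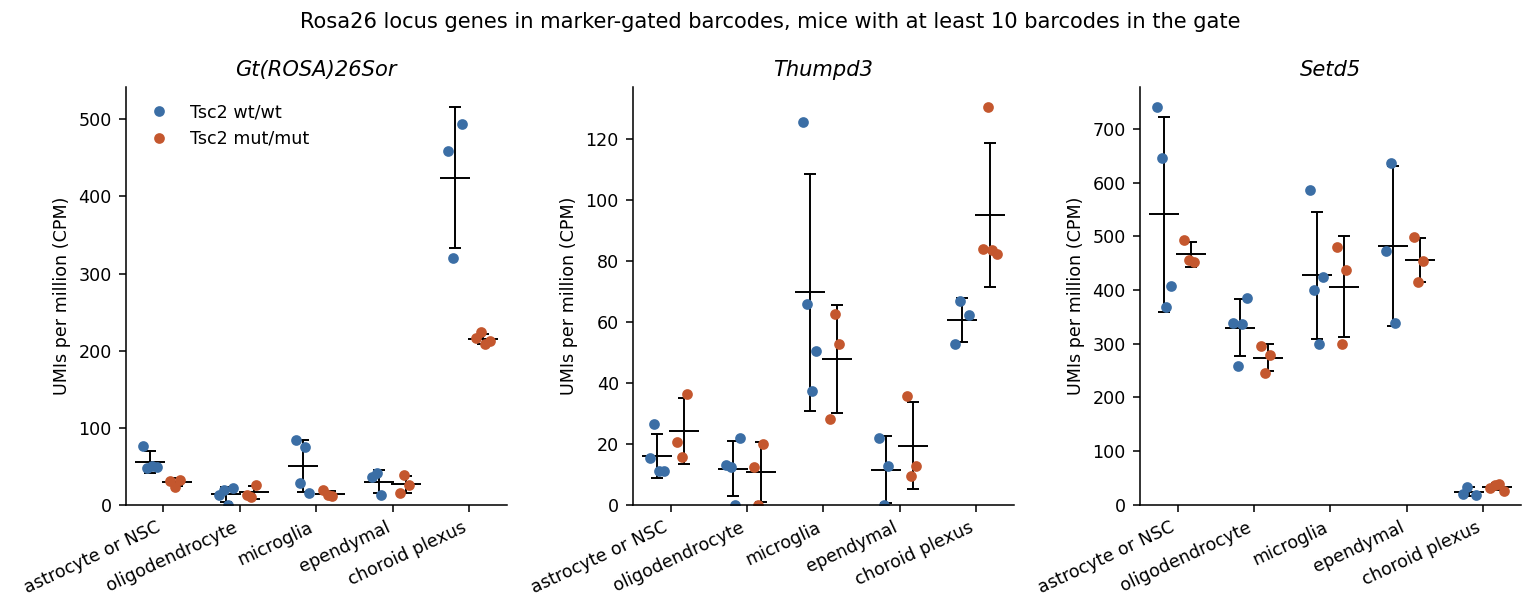
CPM of the 3 genes in barcodes gated by marker genes, for mice with at least 10 barcodes in the gate. Points are mice, and black bars are the mean and SD. Gt(ROSA)26Sor is highest in the choroid plexus gate, at 424 CPM in wt/wt and 215 CPM in mut/mut on average, where Setd5 is lowest.

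Ordered by the wt/wt mean, Gt(ROSA)26Sor ran from choroid plexus through astrocyte or NSC (55.4 CPM ± 13.9, n = 4), microglia and ependymal to oligodendrocyte gates. Only choroid plexus stood clear of the next class beyond the spread of the mice. For Setd5 the order was astrocyte or NSC (541 CPM ± 182, n = 4), ependymal, microglia, oligodendrocyte and choroid plexus, and again only choroid plexus lay apart.

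Over the 8 mice, the levels most like that of Gt(ROSA)26Sor in all barcodes were those of Sdf2, Shisa5, Cdpf1, Ctdnep1 and A930015D03Rik, with Pearson's r from 0.958 to 0.978 on log2 of CPM + 1 among 8855 genes at a mean of 5 CPM or more. The 8 points fall into the 2 genotypes and share their libraries, so r restates that each gene was higher in wt/wt. Sdf2 was at 14.7 CPM ± 1.22 and 11.8 CPM ± 0.168, and A930015D03Rik at 10.3 CPM ± 2.56 and 3.12 CPM ± 0.683 (SD, n = 4 each), in wt/wt and mut/mut. Setd5 ranked 1586 with r = 0.482 and Thumpd3 5184 with r = 0.122 on the same scale.

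Lists of partners and relatives of the flanking genes' products, and of nuclear noncoding RNAs, held no gene called between genotypes. Most genes were not called either, since 0.0456% of all tested were called. Of 8 genes of TRMT112 partners and THUMP proteins, all were tested over all barcodes and 0 were called by edgeR in either direction, with 0 at an unadjusted p under 0.05 and a median log2 fold change of -0.08. Of 7 genes of SETD5 relatives and the HDAC3 co-repressor, 0 were called, with 0 at an unadjusted p under 0.05 and a median of -0.06. Of 10 nuclear noncoding RNAs, 0 were called, with 1 at an unadjusted p under 0.05 and a median of 0.17, while the median of all genes was -0.01. Of all 15360 genes, 1108 had an unadjusted edgeR p under 0.05.

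In low- against high-mitochondrial barcodes the nuclear noncoding RNAs went the way of Setd5 more than that of Gt(ROSA)26Sor. Of the 8 tested, 6 were higher and 2 lower with TMM scaling, with a median log2 difference of 1.95 beside -0.06 for all genes. Malat1 was higher by 3.65 with an SE of 0.47, Neat1, the scaffold of paraspeckles, by 3.05 with an SE of 0.32, and Kcnq1ot1, an imprinted antisense RNA, by 3.51 with an SE of 0.43. Rian and Peg13, both from imprinted loci, were the 2 lower, at -1.96 with an SE of 0.33 and -2.88 with an SE of 0.20. With total UMIs as the scale 6 were higher and 1, Peg13, was lower. Of the 7 genes of the SETD5 list 4 were higher and 0 lower with TMM scaling, led by Kmt2e, the nearest relative of Setd5, at 1.16 with an SE of 0.21, and all 7 were higher with total UMIs. On that scale 69.2% of all genes were higher and 12.6% lower, so these counts are read against a general shift, as those with TMM scaling are against 38.6% and 40.1%. Of 7 tested genes of the THUMP list, Trmt11 was higher, and Thumpd1 and Trmt112 were lower with TMM scaling. With total UMIs 6 were higher, Thumpd1 among them, and Trmt112 was not called, at a log2 difference of -0.01.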

How the data were processed

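Nuclei of 8 V-SVZs were sorted for tdTomato and made into 10x Genomics 3′ v3.1 libraries, 1 per mouse. Per the study's methods, the authors aligned reads to GRCm38 (mm10) with Cell Ranger 7.0.1, set to return 60000 barcodes, and used Seurat v4 downstream. The deposited values are raw UMI counts per gene and barcode, with no normalization. Whether introns or strand were used in counting is not given in the sources used here. The 3 genes, lists and classes were chosen with earlier results of these data known.

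UMIs were summed per mouse over each barcode set and given as CPM. Genotypes were compared with edgeR 4.0.16 (TMM, filterByExpr, robust quasi-likelihood fit, Benjamini-Hochberg adjustment over all genes, threshold 0.05), with DESeq2 1.42.0 as an alternative, in R 4.3.3, and low- with high-mitochondrial barcodes in 16 sums with the mouse as a block. Fits were tested on simulated data. SE is the log2 fold change over the root of F. Exact permutation tests used scipy 1.17.1. Named genes were the 3 members, called neighbours and the 2 nearest per side at 5 CPM or more, the 5 most like Gt(ROSA)26Sor, Tsc2 and the lists. No doublet caller was run. The authors gated out doublets at the sorter, before droplets were made, so barcodes holding more than 1 nucleus were not removed here. Positions and transcript sequence came from GENCODE M21, which placed 32235 of 32285 identifiers. Pairs of libraries of a genotype differed by 9.52 to 81.0 in chi-square per gene, far over sampling noise. Same-numbered mice of the 2 genotypes did not deviate together (r from -0.25 to 0.08 in 4 pairs), so numbers were not taken as pairs. Intervals cover counting error only.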

Additional observations from a re-analysis of the deposited data

Results flagged for a closer look

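Among 57 groups of 4 mice, 6 had 1 mouse far from the other 3 by Dixon's ratio, where chance flags about 1 in 20. Thumpd3 in mut/mut replicate 3 was at 7.04 CPM over all barcodes, above the other 3 at 5.30 to 5.43. Setd5 in wt/wt replicate 2 was at 30.3 CPM in high-mitochondrial barcodes, and the other 3 were at 17.7 to 19.7. Gt(ROSA)26Sor in wt/wt replicate 1 was at 64.0 CPM in low-mitochondrial barcodes without the choroid plexus gate and at 76.2 CPM in the astrocyte or NSC gate, which is part of that set. Thumpd3 in wt/wt replicate 4 was at 18.7 CPM in low-mitochondrial barcodes without the choroid plexus gate, from 20 UMIs. Thumpd3 in mut/mut replicate 2 was at 130 CPM in the choroid plexus gate, from 28 UMIs in 21 barcodes.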

How the results depend on the processing

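Of 335 values under alternatives, 322 kept their direction and their side of the threshold or moved by less than 1 SD between mice. The 335 values include 144 that leave out 1 mouse at a time. They also include counts of called neighbours, which had little room to change where calls were rare. No neighbour was called under any alternative, in a 500 kb window included. With a limit of 10% mitochondrial UMIs, Gt(ROSA)26Sor in low- against high-mitochondrial barcodes was at -0.83 (edgeR adjusted p 0.0646), with total UMIs in place of TMM at 0.38. The genotype difference of that log2 ratio turned from 0.46 to -0.10 for Thumpd3 at the 10% limit and from 0.71 to -0.95 for Gt(ROSA)26Sor without choroid plexus barcodes. The value of -0.95 includes mut/mut replicate 4, which had 0 Gt(ROSA)26Sor UMIs in that low-mitochondrial set. Its ratio there was set by the 1 added to the CPM, so nothing is read from the change of sign. With at least 500 genes, the genotype log2 fold change was -0.32 for Gt(ROSA)26Sor and 1.15 for Thumpd3, and with at least 200 genes 0.10 for Thumpd3. Without choroid plexus barcodes Thumpd3 was at -0.11 over all barcodes and -0.025 in those of at least 300 genes. Under 10% mitochondrial UMIs, Gt(ROSA)26Sor differed by -0.30 in the astrocyte or NSC gate and by 1.29 in the ependymal gate. The cause was not tested for any of these.

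Leaving out 1 mouse at a time, the log2 fold change of Gt(ROSA)26Sor ran from -0.85 to -0.65 over all barcodes, from -0.95 to -0.83 at 100 to under 200 genes and from -1.02 to -0.52 at 300 or more. Setd5 ran from -0.60 to -0.20, and Thumpd3 from 0.03 to 0.17, over all barcodes. The low- against high-mitochondrial difference of Gt(ROSA)26Sor ran from -1.55 to -0.96. With the replicate number as a replicate block Gt(ROSA)26Sor was at -0.74, -0.88 and -0.73 in the 3 sets, and no neighbour was called. Over all genes and all barcodes edgeR called 7, against 49 by DESeq2, 3 with total UMIs, 15 with no filter on low counts, 2 with the replicate block and 19 without mut/mut replicate 4. At 100 to under 200 genes it called 27, and 110 with no filter, and at 300 or more it called 2, against 7 by DESeq2 and 0 with total UMIs or the replicate block. Without barcodes found in more than 1 library Gt(ROSA)26Sor was at -0.75, -0.87 and -0.72. The alternatives without choroid plexus or shared barcodes were added after the data were seen. Precision is limited by UMIs per mouse in the gates, from 0 to 253 for Gt(ROSA)26Sor, and by 4 mice per genotype.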
